A study of Mus musculus with 24 samples.

Results

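Members of the interleukin-1 (IL-1) family and of the inflammasome were followed in splenic monocytes of WT, Slc29a3-/-, and Slc29a3-/- Tlr7-/- mice. The 10 genes were chosen by name from 23930 amplicons, each of which stands for 1 gene, and all 10 are in the table. Of these, 5 act as cytokines or hold cytokines in check (Il1b, Il1a, Il18, Il1rn, and Il1r2), and 5 build the inflammasome and the pore that follows it (Nlrp3, Pycard, Casp1, Casp4, and Gsdmd). The cells were CD11b+ splenocytes without Ly6G, Siglec F, or NK1.1 on their surface, sorted as Ly6C hi or as Ly6C low cells with Fcgr4, and they were untreated. The sample labels call them macrophages. Each of the 6 groups of subset and genotype has 4 libraries, which makes 24 libraries. SLC29A3 is a lysosomal nucleoside transporter, and TLR7 is a lysosomal sensor of single-stranded RNA and guanosine. Both mutations were made with CRISPR-Cas9 on a C57BL/6 background and affect every cell of the mouse, and both knockout groups lack SLC29A3. WT C57BL/6 mice came from a supplier and are not described as littermates. Mouse ages and whether a library holds 1 mouse or several are not given for these sorts, so the tests measure the spread between libraries, part of which may be technical.

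IL-1β and IL-18 are made as precursors without activity. An inflammasome forms when the sensor NLRP3 recruits the adaptor ASC, the product of Pycard, which in turn recruits caspase-1. Caspase-1 cuts both cytokines and also gasdermin D, whose freed end opens pores in the plasma membrane, while caspase-11, the product of mouse Casp4, cuts gasdermin D in response to cytosolic lipopolysaccharide. IL-1α acts on the same receptor as IL-1β, the IL-1 receptor antagonist encoded by Il1rn blocks that receptor, and the decoy receptor encoded by Il1r2 binds IL-1 without passing on a signal. In monocytes, transcription of Il1b and Nlrp3 is the priming step of the pathway, whereas cleavage and secretion are not seen in mRNA.

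Levels are given as reads per 1000000 reads (RPM). Because each gene is read through 1 amplicon, a level can be compared between libraries but not between genes. The even steps between low values correspond to a depth of 12.3 to 14.6 times 1000000 reads a library, at which 3 reads are worth 0.206 to 0.244 RPM. Markers followed the sort: the summed level of the 4 measured Ly6C hi monocyte markers was 2319 to 6768 RPM in Ly6C hi libraries and 13.6 to 268.9 RPM in Ly6C low libraries. Slc29a3 was at 47 RPM or more in all knockout libraries. Tlr7 was at 259 to 345 RPM in Ly6C hi libraries labelled Tlr7-/- against 210.0 to 336 RPM in WT, and at 355 to 627 RPM against 298 to 479 RPM in Ly6C low. The mutation of Slc29a3 inserts a stop codon and the place of the amplicons is not known, so these levels do not check the labels. WT replicates 1 to 3 of each subset, which carry barcodes 11 to 16, stood apart from WT replicate 4 and from all knockout libraries, which carry barcodes 24 to 46. Their inferred depth was at least 14.24 times 1000000 reads, against at most 13.05 times 1000000 reads in all other libraries. The summed level of 14 early response genes was 17180, 17090, and 17090 RPM in Ly6C hi WT replicates 1 to 3 and 1484 RPM in replicate 4, against 900.7 to 3302 RPM in Ly6C hi knockout libraries. In Ly6C low WT the sums were 16770, 11840, and 14820 RPM in replicates 1 to 3 and 1555 RPM in replicate 4. Whether this goes back to handling was not tested, and each member called against WT is therefore also given with WT replicate 4 alone, in a fit that assumes the lone library to vary like the other groups.

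For orientation, the 250 bases before the transcription start are shown for 4 members. Il1b and Nlrp3 are shown because both were lower in Slc29a3-/- than in WT Ly6C hi monocytes, and Il18 and Il1r2 because they differed in opposite directions between the knockout genotypes in the same subset. Capitals mark matches on either strand to the TATA box, spelled TATAAA, to the AP-1 site, spelled TGANTCA, to the C/EBP site, spelled TTGCNNAA, to the PU.1 core, spelled GAGGAA, or to the NF-kappaB consensus. All sequences are from RefSeq on GRCm38.p6, read 5′ to 3′ along the gene.
Il1b (chr2:129371140-129371389, minus strand): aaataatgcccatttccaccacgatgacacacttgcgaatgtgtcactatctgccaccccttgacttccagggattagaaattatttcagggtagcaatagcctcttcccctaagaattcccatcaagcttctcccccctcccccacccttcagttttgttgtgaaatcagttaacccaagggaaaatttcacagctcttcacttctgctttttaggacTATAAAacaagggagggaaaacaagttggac
Nlrp3 (chr11:59541319-59541568, plus strand): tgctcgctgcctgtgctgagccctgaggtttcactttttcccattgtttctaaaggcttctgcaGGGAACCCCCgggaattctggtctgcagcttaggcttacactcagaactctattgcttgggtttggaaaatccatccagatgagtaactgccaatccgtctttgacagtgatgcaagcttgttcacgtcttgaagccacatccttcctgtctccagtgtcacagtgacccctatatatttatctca
Il18 (chr9:50554450-50554699, plus strand): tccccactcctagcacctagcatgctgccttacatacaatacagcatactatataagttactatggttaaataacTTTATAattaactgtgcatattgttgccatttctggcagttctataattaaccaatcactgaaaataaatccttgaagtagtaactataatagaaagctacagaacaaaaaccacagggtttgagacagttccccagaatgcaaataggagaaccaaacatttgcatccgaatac
Il1r2 (chr1:40085843-40086092, plus strand): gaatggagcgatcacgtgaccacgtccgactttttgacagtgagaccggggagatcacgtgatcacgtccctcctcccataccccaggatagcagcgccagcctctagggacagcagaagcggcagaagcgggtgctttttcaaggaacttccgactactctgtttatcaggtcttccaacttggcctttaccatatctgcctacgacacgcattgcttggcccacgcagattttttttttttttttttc
The Il1b promoter held TATAAA 31 to 26 bases before the start and no other match. Nlrp3 held an NF-kappaB match 186 to 177 bases before the start on both strands. Another RefSeq start of Nlrp3, which is not shown, held 3 PU.1 matches and no NF-kappaB match. Il18 held TATAAA on the opposite strand 175 to 170 bases before the start, and Il1r2 held no match, although its RefSeq start lies 12014 bases inside the gene as annotated by GENCODE. Of 32851 mouse promoters of this length, 12.4% held TATAAA, 6.75% AP-1, 9.56% C/EBP, 23.3% PU.1, and 7.25% NF-kappaB. Of the 10 members, 9 had a promoter in the table, with 13 starts in all.

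In Ly6C hi monocytes, Nlrp3 and Il1b were lower in Slc29a3-/- than in WT, and Nlrp3 and Il18 were lower while Il1r2 was higher in Slc29a3-/- than in Slc29a3-/- Tlr7-/-. In Ly6C low monocytes, Il1b was higher and Nlrp3 and Il1r2 were lower in Slc29a3-/- than in WT. The Il1b calls were lost in 6 of 8 fits that left out 1 library in Ly6C hi and in 7 of 8 in Ly6C low. The Nlrp3 call between the knockout genotypes in Ly6C hi was also lost in 6 of 8. Against WT replicate 4 alone, all these differences from WT but that of Nlrp3 in Ly6C low were smaller in size. Differences were tested with limma on log2(RPM + 1), and a call needed both a Benjamini-Hochberg adjusted p under 0.05 and more than a 1.5-fold difference. For Ly6C hi Slc29a3-/- against WT, 0 of 9 members tested were called higher and 2 lower, with 8.15% of all 10561 genes called higher and 14.3% lower. Slc29a3-/- Tlr7-/- against WT gave 0 higher and 1 lower in Ly6C hi (all genes 0.312% and 1.11%), and Slc29a3-/- against Slc29a3-/- Tlr7-/- gave 1 higher and 2 lower (9.00% and 8.22%). In Ly6C low, 1 of 10 members was called higher and 2 lower in Slc29a3-/- against WT (1.90% and 2.53% of 10317 genes). The double knockout against WT gave 0 higher and 2 lower (2.28% and 6.03%). Between the knockout genotypes no member was called in Ly6C low by limma (1.22% of all genes called higher and 0.708% lower). An unadjusted p under 0.05 was reached by 4 of 10 members, of which Il1b, Il1r2, and Casp1 differed more than 1.5-fold. All genes with such a p and fold difference were 1113 higher and 301 lower of 10317.

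**Figure D1:**
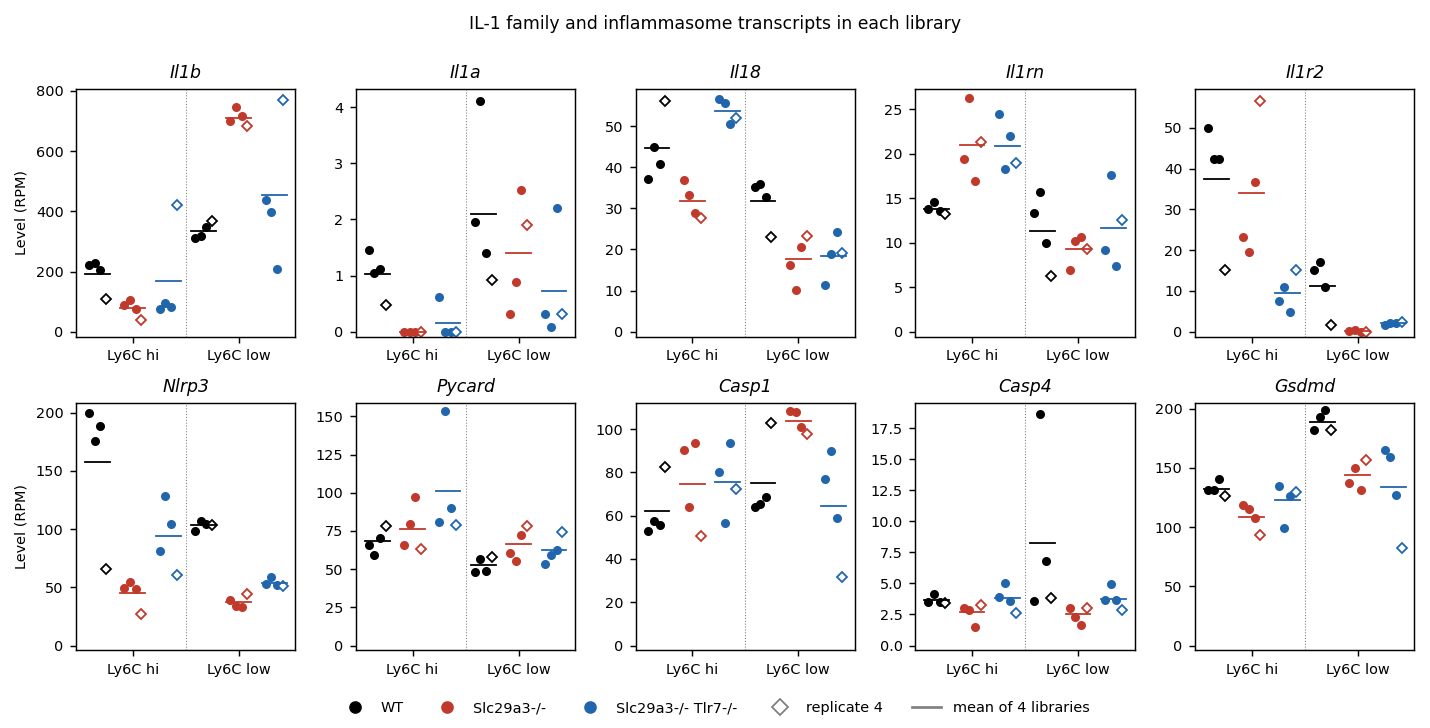
Level (RPM) of each member in the 24 libraries, by subset and genotype, with a line at the mean of 4 libraries and an open diamond for replicate 4. Il1b in Ly6C low Slc29a3-/- libraries lay at 683 to 746 RPM, above the 311 to 367 RPM of WT, and Nlrp3 lay lower in Slc29a3-/- than in WT in both subsets.

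Over the members tested, the median log2 fold change was -0.29 against -0.14 for all genes in Ly6C hi Slc29a3-/- against WT, 0.03 against -0.06 in Slc29a3-/- Tlr7-/- against WT, and -0.36 against -0.12 in Slc29a3-/- against Slc29a3-/- Tlr7-/-. In Ly6C low the medians were -0.38 against 0.002, -0.62 against -0.10, and 0.005 against 0.08 in the same order. The median of all genes in Ly6C hi Slc29a3-/- was thus shifted by over 0.1, and scaling by trimmed means (TMM) instead of totals moved the split of all calls from 861 higher and 1507 lower to 1286 higher and 1066 lower against WT, and from 951 and 868 to 1184 and 521 against Slc29a3-/- Tlr7-/-. Under TMM the split of members in Ly6C hi Slc29a3-/- against WT was 1 higher (Il1rn) and 1 lower (Nlrp3), and against the double knockout 1 higher (Il1r2) and 1 lower (Il18). For Slc29a3-/- Tlr7-/- against WT the split of all genes moved from 33 and 117 to 62 and 106 in Ly6C hi, and from 235 and 622 to 371 and 526 in Ly6C low.

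Il1b (chr2:129364570-129371139) encodes IL-1β, the main secreted IL-1 of monocytes. In Ly6C hi WT libraries its level was 220.2, 228, 206, and 108 RPM, in Slc29a3-/- 88.9, 106, 74.8, and 38.6 RPM, and in Slc29a3-/- Tlr7-/- 73.9, 94.7, 82.2, and 421 RPM. All 4 Slc29a3-/- libraries lay below all WT libraries, the highest at 106 and the lowest WT library at 108 RPM, and the double knockout had 3 libraries in the range of Slc29a3-/- and 1 above WT. The fold change of Slc29a3-/- against WT was 2.51 downward (log2 -1.33 ± 0.47 SE, adjusted p = 0.046). Leaving out a library changed this value to between -1.58 and -1.03 and took the call away in 6 of 8 cases, all but those without WT replicate 4 or Slc29a3-/- replicate 2, and against WT replicate 4 alone it was -0.57 (adjusted p = 0.75). The early response sum was lower in the same libraries (900.7 to 1298 RPM in Slc29a3-/-), and its part in the difference was not tested. In bulk RNA of sorted cells, fewer cells of a kind and less RNA per cell cannot be told apart. Slc29a3-/- Tlr7-/- did not differ detectably from WT (log2 -0.54, 95% interval -1.54 to 0.45) or from Slc29a3-/- (log2 of Slc29a3-/- over it -0.78, -1.77 to 0.21).

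In Ly6C low monocytes, Il1b went the other way. Its level was 311, 317, 348, and 367 RPM in WT libraries, 699, 746, 716, and 683 RPM in Slc29a3-/-, and 437, 398, 208, and 770 RPM in Slc29a3-/- Tlr7-/-. The Slc29a3-/- libraries were tightly grouped and all above WT, whereas the double knockout spread from below WT to above Slc29a3-/-. Some markers of other spleen cells were higher in the same libraries and some were lower. The sum of 4 red pulp macrophage markers was 364.5 to 627 RPM in Slc29a3-/-, 200.4 to 276.9 RPM in WT, and 146.7 to 316 RPM in the double knockout, with 2 of 4 called higher in Slc29a3-/- against each of the other genotypes. The sum of the 2 measured erythroid markers was 33.3 to 39.5 RPM in Slc29a3-/- and at most 5.52 RPM in the other genotypes. The sum of 4 conventional dendritic cell markers was 10.65 to 20.9 RPM in Slc29a3-/-, 27.32 to 51.35 RPM in WT, and 31.01 to 49.54 RPM in the double knockout. Of these markers, 3 of 4 were called lower in Slc29a3-/- against each genotype, as were 2 of 4 NK cell markers against WT. The part of all these cells in the Il1b difference was not tested. The mean of Il1b was 711 ± 27 RPM (SD, n = 4) in Slc29a3-/- and 336 ± 26.6 RPM in WT libraries, a 2.12-fold difference (log2 1.08 ± 0.28, adjusted p = 0.038). Against WT replicate 4 alone the value was 0.95 (adjusted p = 0.66), and leaving out libraries gave 1.05 to 1.13 while the adjusted p passed the threshold in 1 of 8 fits, the one without WT replicate 4. Against Slc29a3-/- Tlr7-/- the log2 difference was 0.80 ± 0.28 (adjusted p = 0.16), and without replicate 4 of the double knockout it was 1.10 (adjusted p = 0.01). That library held 3797 RPM of early response transcripts, against 1307 to 2108 RPM in the other 3. The Ly6C hi library of the same number held 3302 RPM against 1499 to 1708 RPM, but the number is not established as a pairing. The part of these transcripts in its Il1b level was not tested, and they are no ground to leave the library out.

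Il1a (chr2:129299610-129309972), which encodes IL-1α, stayed at 4.12 RPM or less in all libraries. In Ly6C hi monocytes it was at 1.46, 1.04, 1.12, and 0.468 RPM in WT libraries, at 0 in all 4 Slc29a3-/- libraries, and at 0.616 RPM in replicate 1 and 0 in the other 3 of Slc29a3-/- Tlr7-/-. Only 3 of these 12 libraries reached 1 RPM, so Il1a was below the filter and was not tested in this subset. The WT mean of 1.02 RPM was 4.28 times the 3 reads that a level of 0 allows in each Slc29a3-/- library (0.239 RPM). This ratio leaves out the spread of the WT libraries. That mean rests on WT replicates 1 to 3, since replicate 4 was at 0.468 RPM, nearer to the limit. In Ly6C low monocytes Il1a was at 1.96, 4.12, 1.41, and 0.92 RPM in WT libraries, 0.318, 0.88, 2.52, and 1.91 RPM in Slc29a3-/-, and 0.323, 0.079, 2.21, and 0.32 RPM in the double knockout. These groups overlapped and no difference was called, with log2 values of -0.37 for Slc29a3-/- and -0.88 for Slc29a3-/- Tlr7-/- against WT (adjusted p = 0.67 and 0.17).

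Il18 (chr9:50554827-50581840) encodes IL-18, a cytokine that acts on NK cells and T cells. Its Ly6C hi levels were 37.3, 45, 40.8, and 56.2 RPM in WT libraries, 36.9, 33.3, 28.9, and 27.6 RPM in Slc29a3-/-, and 56.7, 55.6, 50.5, and 52 RPM in Slc29a3-/- Tlr7-/-. Every Slc29a3-/- library lay below every WT and every double knockout library, and the WT and double knockout ranges overlapped. The level in Slc29a3-/- was 1.68-fold lower than in Slc29a3-/- Tlr7-/- (log2 -0.75 ± 0.15, adjusted p = 0.0033), and this was called without each single library in turn (-0.82 to -0.69). Compared with WT the change stayed under 1.5-fold (log2 -0.48, adjusted p = 0.029; with WT replicate 4 alone -0.82, adjusted p = 0.12). Markers of other cell types were lower in the same Slc29a3-/- libraries. The sum of 4 conventional dendritic cell markers was 9.85 to 14.8 RPM there, 50.0 to 67.3 RPM in Slc29a3-/- Tlr7-/-, and 46.5 to 81.2 RPM in WT, and that of 3 plasmacytoid dendritic cell markers 75.1 to 155, 192 to 289, and 179 to 265 RPM. All of these markers were called lower in Slc29a3-/- against both other genotypes, as were all 4 T cell and all 4 NK cell markers against WT, and against the double knockout 2 of 4 T cell and 0 of 4 NK cell markers. The part of these cells in the differences of Il18, and of Nlrp3 and the sensors below, was not tested. In Ly6C low monocytes, Il18 lay at 22.9 to 36 RPM in WT libraries, 10.2 to 23.4 RPM in Slc29a3-/-, and 11.4 to 24.2 RPM in Slc29a3-/- Tlr7-/-, with overlapping ranges. The log2 differences from WT, -0.85 and -0.78, did not pass the threshold (adjusted p = 0.09 and 0.08). They did pass in a single fit of all 24 libraries (adjusted p = 0.02 and 0.023) and without WT replicate 4 (adjusted p = 0.031 and 0.036), and against that library alone they were -0.42 and -0.35 (adjusted p = 0.87 and 0.75).

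Il1rn (chr2:24336853-24351494), which encodes the IL-1 receptor antagonist, was at 13.8, 14.6, 13.6, and 13.3 RPM in Ly6C hi WT. It was at 19.3, 26.2, 17, and 21.3 RPM in Slc29a3-/- and 24.5, 18.3, 21.9, and 18.9 RPM in Slc29a3-/- Tlr7-/-, so that all 8 knockout libraries lay above the 4 WT libraries. The fold changes were near 1.5 and neither was called: log2 0.55 ± 0.17 in Slc29a3-/- (adjusted p = 0.024) and 0.56 ± 0.17 in the double knockout (adjusted p = 0.083). The former is called under TMM scaling, at 0.71 (adjusted p = 0.007), and with WT replicate 4 alone it was 0.61 (adjusted p = 0.37). Ly6C low levels were 6.21 to 15.7 RPM in WT libraries, 6.92 to 10.6 RPM in Slc29a3-/-, and 7.34 to 17.6 RPM in Slc29a3-/- Tlr7-/-, with no difference called.

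Il1r2 (chr1:40074079-40125231) encodes the decoy receptor. In Ly6C hi monocytes it was at 50.1, 42.4, 42.4, and 15.2 RPM in WT libraries, 23.2, 19.6, 36.6, and 56.7 RPM in Slc29a3-/-, and 7.47, 11, 4.83, and 15.1 RPM in Slc29a3-/- Tlr7-/-. The double knockout lay below the other genotypes, although its highest library reached 15.1 RPM and WT replicate 4 stood at 15.2 RPM. Slc29a3-/- exceeded Slc29a3-/- Tlr7-/- 3.27-fold (log2 1.71 ± 0.40, adjusted p = 0.0087), which was called without each library in turn (1.43 to 1.94). The double knockout was 3.58-fold below WT (log2 -1.84 ± 0.40, adjusted p = 0.043). This call was kept without WT replicate 4 or double knockout replicate 1 and lost in the other 6 of 8 fits that left out 1 library (-2.21 to -1.59 over the 8), and against WT replicate 4 alone the value was -0.72 (adjusted p = 1). Slc29a3-/- and WT overlapped (log2 -0.13, 95% interval -0.99 to 0.73), and against WT replicate 4 alone the value was 0.99 (adjusted p = 0.43).

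In Ly6C low monocytes Il1r2 fell to the limit of detection in Slc29a3-/-. The levels were 15.2, 17.2, 11, and 1.53 RPM in WT libraries, 0.239, 0.32, 0, and 0 RPM in Slc29a3-/-, which correspond to 3, 4, 0, and 0 reads, and 1.7, 2.22, 2.21, and 2.48 RPM in Slc29a3-/- Tlr7-/-. The 3 genotypes were ordered WT, double knockout, Slc29a3-/- by their means, with WT replicate 4 below all double knockout libraries. Against WT the log2 difference was -3.10 ± 0.47 in Slc29a3-/- (adjusted p = 0.0019) and -1.63 ± 0.47 in Slc29a3-/- Tlr7-/- (adjusted p = 0.048). Such fitted values depend on the constant added to RPM, and against WT replicate 4 alone they were -1.16 (adjusted p = 0.34) and 0.31 (adjusted p = 0.71), the latter with the opposite sign. The difference of the double knockout from WT was called in 1 of 8 fits that left out a library, the one without WT replicate 4 (-2.28 to -1.33 over the 8), and that of Slc29a3-/- in all 8 (-3.75 to -2.80). Slc29a3-/- lay below the double knockout in all libraries, but limma did not call the difference (log2 -1.47 ± 0.47, adjusted p = 0.14). With 0.1 added to RPM in place of 1, Il1r2 was called in that comparison (log2 -3.52, adjusted p = 0.02).

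Neutrophils carry much Il1r2, and transcripts of neutrophil genes differed between some of the same groups. The summed level of 10 neutrophil markers was 13940 to 21670 RPM in Ly6C hi WT, 42490 to 81630 RPM in Slc29a3-/-, and 6362 to 21770 RPM in Slc29a3-/- Tlr7-/-. In Ly6C low it was 777, 1414, 690.9, and 218 RPM in WT libraries, 136.6 to 235 RPM in Slc29a3-/-, and 154.1 to 207.8 RPM in the double knockout. Of these markers, 7 of 10 were called higher and 1 lower in Ly6C hi Slc29a3-/- against Slc29a3-/- Tlr7-/-, and in Ly6C low 3 of 8 tested were called lower in Slc29a3-/- against WT and 7 in Slc29a3-/- Tlr7-/- against WT. Of the defining markers, Ly6g was at 59.2 to 139 RPM in Ly6C hi Slc29a3-/- and 17.9 to 33.5 RPM in Ly6C hi WT although Ly6G+ cells were gated out, and it was at 0 in all 4 Ly6C low double knockout libraries. In Ly6C hi Slc29a3-/- Tlr7-/- against WT, where Il1r2 was called lower, the sums overlapped and 2 of 10 markers were called lower. In Ly6C hi Slc29a3-/- against WT, where Il1r2 was not called, the list was mixed. It had 5 markers called higher (Ly6g, Ltf, Ngp, Camp, and Lcn2) and 2 lower (Mmp8 and Retnlg). Retnlg was at 274, 290, 261, and 23.5 RPM in WT and at most 62.3 RPM in Slc29a3-/-, and WT replicate 4 was the lowest of these 8 libraries for both Retnlg and Il1r2. In Ly6C low Slc29a3-/- against Slc29a3-/- Tlr7-/- the sums overlapped, with Csf3r alone at 108 to 167 and 146 to 175 RPM, and 1 of 8 markers was called lower: Mmp9, at 0.318 to 0.946 RPM in Slc29a3-/- and 5.29 to 6.87 RPM in the double knockout, apart in the same direction as Il1r2. The part of neutrophil transcripts in the Il1r2 differences was not tested.

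**Figure D2:**
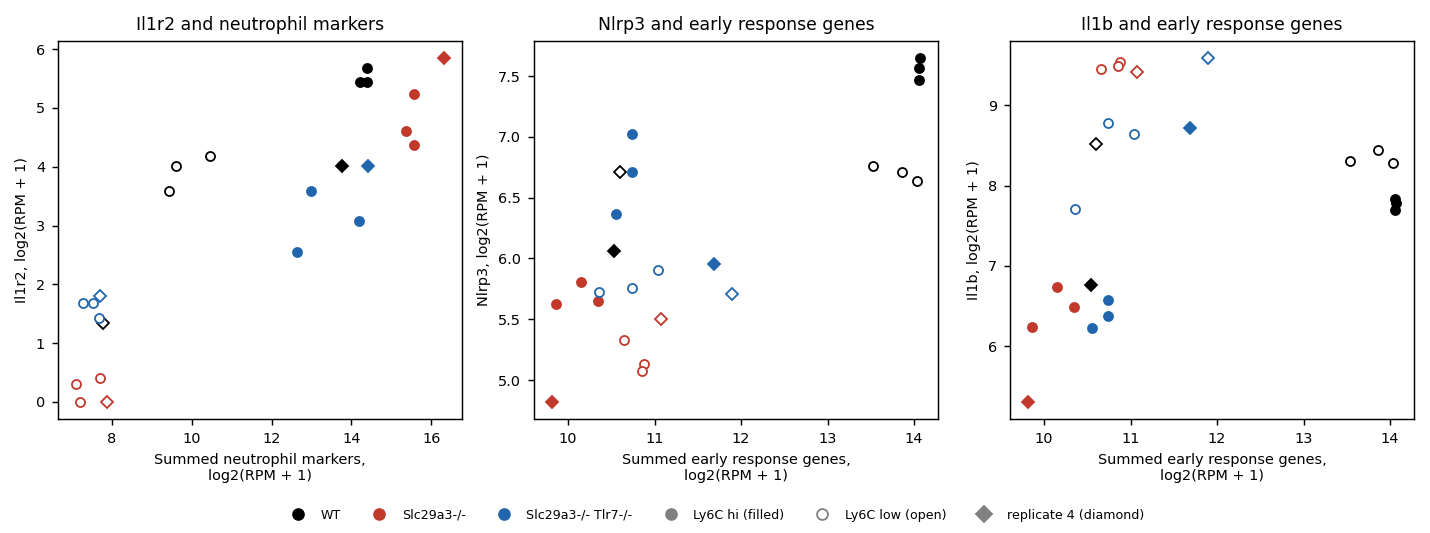
Levels of Il1r2, Nlrp3, and Il1b (vertical axes, log2(RPM + 1)) against summed neutrophil markers or early response genes (horizontal axes, log2(RPM + 1)) in 24 libraries, coloured by genotype, filled for Ly6C hi and open for Ly6C low, with diamonds for replicate 4. WT replicates 1 to 3 stood apart on the early response axis, at 11840 to 17180 RPM.

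Nlrp3 (chr11:59541568-59566956) encodes the sensor of the inflammasome, and in Ly6C low monocytes its difference from WT was called in every fit that left out 1 library. There it was at 98.5, 107, 104, and 104 RPM in WT libraries, 39.1, 34.1, 32.7, and 44.4 RPM in Slc29a3-/-, and 53.2, 59, 51.9, and 51.1 RPM in Slc29a3-/- Tlr7-/-. No groups overlapped, and the spread within each was small (103 ± 3.59, 37.6 ± 5.34, and 53.8 ± 3.56 RPM, SD, n = 4). Slc29a3-/- was 2.72-fold below WT (log2 -1.45 ± 0.14, adjusted p = 3.6e-05), and Slc29a3-/- Tlr7-/- 1.91-fold (log2 -0.93 ± 0.14, adjusted p = 0.0043). Against WT replicate 4 alone the values were -1.45 (adjusted p = 0.04) and -0.94 (adjusted p = 0.39), with WT replicate 4 at 104 RPM like the other WT libraries. Slc29a3-/- against Slc29a3-/- Tlr7-/- was at -0.52 on the log2 scale (adjusted p = 0.081), less than 1.5-fold. Conventional dendritic cell markers were also lower in the Slc29a3-/- libraries of this subset, as given above, and their part in the Nlrp3 differences was not tested.

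In Ly6C hi monocytes, Nlrp3 was at 199.7, 176, 189, and 65.9 RPM in WT libraries, 49.3, 55, 48.4, and 27.2 RPM in Slc29a3-/-, and 81.3, 129, 104, and 60.9 RPM in Slc29a3-/- Tlr7-/-. All Slc29a3-/- libraries lay below all libraries of the other genotypes, while WT replicate 4 lay within the range of the double knockout. Slc29a3-/- was 3.27-fold below WT (log2 -1.71 ± 0.33, adjusted p = 0.0022) and 2.05-fold below Slc29a3-/- Tlr7-/- (log2 -1.04 ± 0.33, adjusted p = 0.04). The former was called in every fit that left out 1 library (-2.08 to -1.49) but was -0.59 against WT replicate 4 alone (adjusted p = 0.51). The latter was kept without Slc29a3-/- replicate 2 or double knockout replicate 4 and lost in the other 6 of 8 fits (-1.22 to -0.82) and under TMM scaling (-0.89, adjusted p = 0.067). Here too the high WT replicates 1 to 3 are those with high early response sums, which was not tested as a cause.

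**Figure D3:**
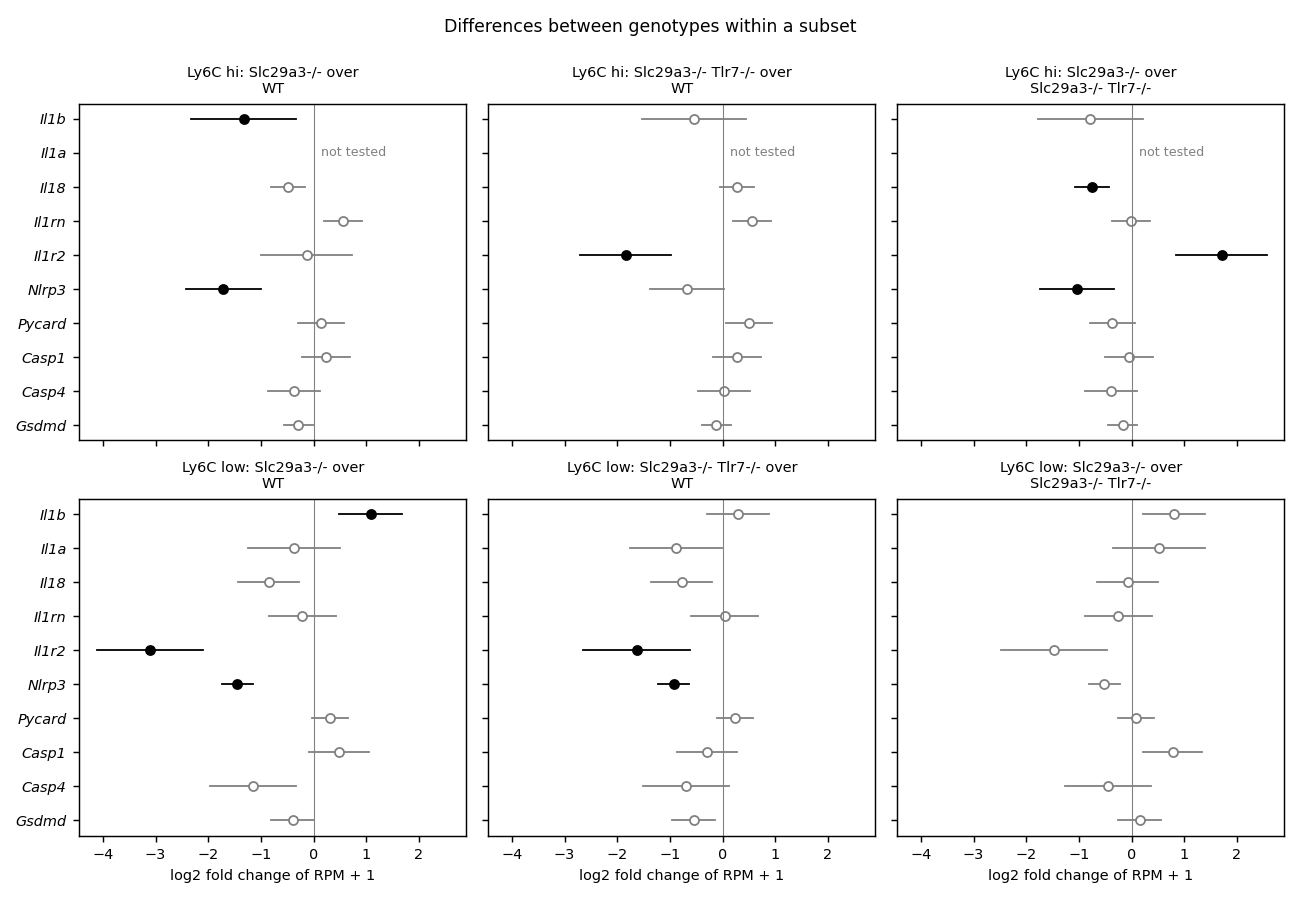
Log2 fold change of RPM + 1 with its 95% interval for each member in the 6 genotype comparisons, filled where called. Nlrp3 lies left of 0 in all 6 panels and is called in 4 of them.

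The other members of the inflammasome were not called between genotypes in either subset. Pycard (ASC, chr7:127989708-127993867) ranged from 48.1 to 154 RPM, Casp1 (chr9:5298517-5307265) from 31.6 to 108 RPM, Casp4 (chr9:5308828-5336783) from 1.51 to 18.7 RPM, and Gsdmd (gasdermin D, chr15:75862327-75867408) from 82.1 to 199 RPM over the 24 libraries. Positions are those of the protein-coding genes in GENCODE on mm10. For Casp1 in Ly6C low, Slc29a3-/- libraries lay at 97.9 to 108 RPM and the double knockout at 31.6 to 89.7 RPM without overlap (log2 0.78 ± 0.26, adjusted p = 0.16), and WT lay at 64, 65.2, 68.8, and 103 RPM. Gsdmd in Ly6C low was at 182, 193, 199, and 182 RPM in WT and at 131 to 157 RPM in Slc29a3-/-, again without overlap (log2 -0.40 ± 0.19, adjusted p = 0.26). The double knockout spread over 82.1 to 165 RPM (log2 against WT -0.55 ± 0.19, adjusted p = 0.078). Here and for the other members, how many of all genes have groups without overlap was not counted, so such a separation does not set a member apart. In Ly6C hi, Gsdmd was at 126 to 141 RPM in WT and 93.6 to 119 RPM in Slc29a3-/- (log2 -0.29 ± 0.13, adjusted p = 0.11). Casp4 had its highest values, 18.7 and 6.81 RPM, in Ly6C low WT replicates 2 and 3, and its Slc29a3-/- level in that subset was 2.21-fold lower without passing the threshold (log2 -1.14 ± 0.38, adjusted p = 0.10). Pycard in Ly6C hi Slc29a3-/- Tlr7-/- rested at 79.1 to 89.8 RPM in 3 libraries and 154 RPM in replicate 2.

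The subsets were compared within each genotype. In WT, 1 of 10 members was called higher and 0 lower in Ly6C hi than in Ly6C low (17.5% and 8.46% of 11042 genes), in Slc29a3-/- 3 higher and 2 lower (16.5% and 18.5%), and in Slc29a3-/- Tlr7-/- 5 higher and 1 lower (18.7% and 9.64%). Il1r2 was higher in Ly6C hi in all 3 genotypes, with log2 differences of 1.86 ± 0.47 in WT (adjusted p = 0.0036, and 1.21 without Ly6C low WT replicate 4), 4.84 ± 0.47 in Slc29a3-/- (adjusted p = 6.7e-09), and 1.65 ± 0.47 in Slc29a3-/- Tlr7-/- (adjusted p = 0.0082), beside neutrophil marker sums that were likewise higher in every Ly6C hi library. Il1b was higher in Ly6C low, 9.70-fold in Slc29a3-/- (log2 of hi over low -3.28 ± 0.42, adjusted p = 4.9e-07) and 3.25-fold in Slc29a3-/- Tlr7-/- (-1.70 ± 0.42, adjusted p = 0.0025). In WT the Il1b difference was -0.87 ± 0.42 (adjusted p = 0.12). With the replicate number as a block within each genotype, the WT Il1b difference was called (adjusted p = 0.023). Same-numbered WT libraries of the subsets deviated together, but replicates 2 and 3 correlated as well with other numbers (0.26 against 0.30 and 0.32). The block also pairs knockout libraries by number, so this call rests on a pairing that is not established. Il1a was at 0 in Ly6C hi and at a mean of 1.41 RPM in Ly6C low Slc29a3-/-. This was 5.89 times the 0.239 RPM that 3 reads are worth, a ratio that leaves out the spread of the libraries. That mean includes replicate 1 at 0.318 RPM, near the limit of detection, and limma gave a log2 difference of -1.17 ± 0.34 (adjusted p = 0.0069).

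Il18 and Il1rn were higher in Ly6C hi monocytes of both knockout genotypes. Il18 differed 1.82-fold in Slc29a3-/- (log2 0.86 ± 0.22, adjusted p = 0.003) and 2.90-fold in Slc29a3-/- Tlr7-/- (1.54 ± 0.22, adjusted p = 6.3e-06). Il1rn differed 2.14-fold (1.10 ± 0.24, adjusted p = 7.2e-04) and 1.80-fold (0.85 ± 0.24, adjusted p = 0.0087). In the double knockout Nlrp3 and Pycard were also called higher, by 0.74 and 0.64 on the log2 scale (adjusted p = 0.037 and 0.0095), and neither was called under TMM scaling. Leaving out a library took the call of Nlrp3 away in 5 of 8 fits (Ly6C hi replicate 2 or 3, or Ly6C low replicate 1, 3, or 4; 0.57 to 0.92), and that of Pycard in 2 (Ly6C hi replicate 2 or Ly6C low replicate 1; 0.42 to 0.73). Casp1, Casp4, and Gsdmd were called in no genotype, with Gsdmd lower in Ly6C hi by less than 1.5-fold in WT (log2 -0.51, adjusted p = 0.017) and in Slc29a3-/- (-0.40, adjusted p = 0.048).

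**Figure D4:**
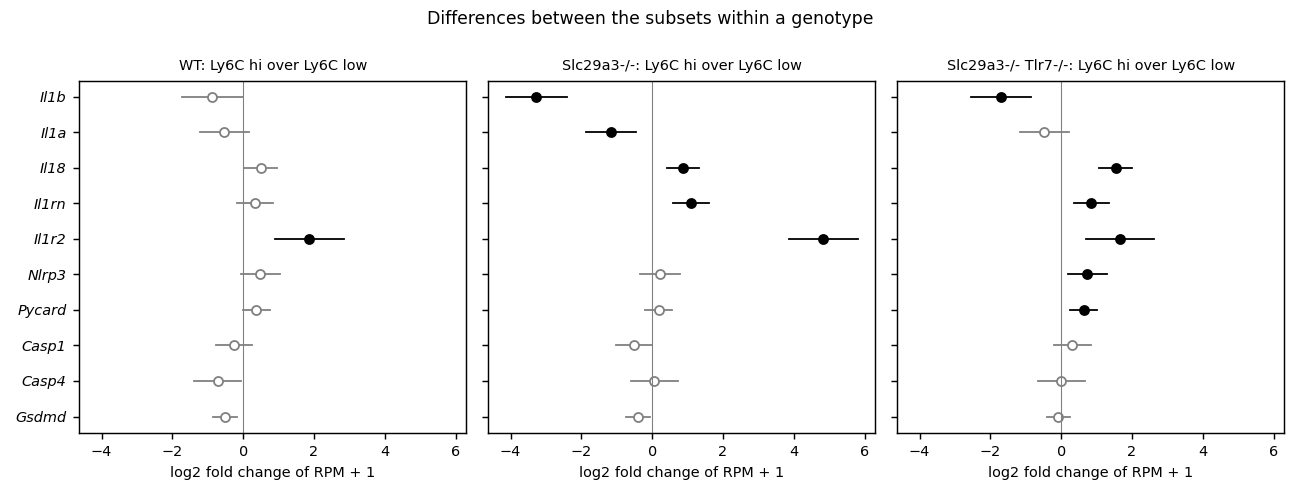
Log2 fold change of RPM + 1 of Ly6C hi over Ly6C low monocytes with its 95% interval for each member in WT, Slc29a3-/-, and Slc29a3-/- Tlr7-/- mice, filled where called. Il1r2 lies to the right and Il1b to the left of 0 in every genotype, farthest in Slc29a3-/- at 4.84 and -3.28.

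The genotype effects were then compared between the subsets in a model of all 24 libraries. For Slc29a3-/- against Slc29a3-/- Tlr7-/-, 1 of 10 members was called as different (8.94% of all genes in either direction): Il1r2, whose effect was 3.18 ± 0.66 greater on the log2 scale in Ly6C hi than in Ly6C low (adjusted p = 0.0038). The difference for Il1b was -1.58 ± 0.59 (adjusted p = 0.094, and 0.02 with the replicate block within each genotype). That block pairs knockout libraries by number. Same-numbered libraries of the subsets correlated at -0.08 to 0.26 in Slc29a3-/- and -0.46 to 0.34 in Slc29a3-/- Tlr7-/-, so the pairing is not borne out. For Slc29a3-/- against WT, a comparison added after the data were seen, 2 members were called (8.76% of all genes). The Il1b effect was lower in Ly6C hi by -2.41 ± 0.59 (adjusted p = 0.01) and the Il1r2 effect higher by 2.97 ± 0.66 (adjusted p = 0.0053), which was 3.62 without Ly6C low WT replicate 4. With WT replicate 4 alone these were -1.52 (adjusted p = 0.71) and 2.16 (adjusted p = 0.23). TMM scaling moved the split of all calls in these 2 comparisons from 500 higher and 487 lower to 686 and 286, and from 454 and 513 to 639 and 373.

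Other genes of the pathway were read from a list of 46, and their comparisons with WT use all 4 WT libraries, without a fit on replicate 4 alone. In Ly6C hi Slc29a3-/- against WT, 4 of 38 tested were called higher and 6 lower (8.15% and 14.3% of all genes), led by Serpinb1a (log2 1.87), an inhibitor of neutrophil serine proteases, Naip6 (-1.42), a sensor protein of the NAIP family, and Dfna5 (1.37), which encodes gasdermin E. Against Slc29a3-/- Tlr7-/-, 5 were called higher and 11 lower (9.00% and 8.22% of all genes), with Serpinb1a at 2.23, the IL-18 receptor subunit gene Il18rap at 1.66, and Dfna5 at 1.51. Of 10 tested sensors, 5 were lower (Nlrp1a, Nlrp1b, Aim2, Naip5, and Naip6) and 1 higher (Nlrp12, 0.98). None of 38 was called by limma in the Ly6C hi double knockout against WT (0.312% of all genes higher and 1.11% lower). An unadjusted p under 0.05 was reached by 14, without a fold threshold, and the share of all genes at that p alone was not computed. With more than a 1.5-fold difference as well, 329 of all 10561 genes were higher and 997 lower. These counts rest on unlike thresholds and cannot be set against each other. The neutrophil marker sums given above moved in the same libraries as Serpinb1a, and their part was not tested.

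In Ly6C low Slc29a3-/- against WT, 2 of 35 were called higher and 4 lower (1.90% and 2.53% of all genes), with the largest changes in Nlrp1b (-1.40), Gbp5 (1.22), a guanylate-binding protein induced by interferon, and Ninj1 (-1.14), which ruptures the membrane of dying cells. Slc29a3-/- Tlr7-/- against WT gave 0 higher and 4 lower (2.28% and 6.03%), led by Il18r1 (-1.55), Nlrp1b (-1.13), and Tollip (-1.01), an inhibitor of IL-1 receptor signalling. Between the knockout genotypes only Naip5 was called by limma (-0.70, adjusted p = 0.013, beside 1.22% of all genes higher and 0.708% lower). Ninj1 was at a mean of 57.7 RPM in WT libraries, 25.3 RPM in Slc29a3-/-, and 43.7 RPM in the double knockout, an order that Nlrp3 also followed in this subset.

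Between the subsets, 10 of 39 pathway genes were called higher and 4 lower in Ly6C hi WT (17.5% and 8.46% of all genes), 11 and 7 in Slc29a3-/- (16.5% and 18.5%), and 16 and 2 in Slc29a3-/- Tlr7-/- (18.7% and 9.64%). Serpinb1a was the largest in all 3 genotypes (log2 4.35, 5.51, and 4.47), followed in Slc29a3-/- by Il1f9, which encodes IL-36γ (3.35), and Il18rap (3.31). Mefv, which encodes pyrin, was at 51.8, 71.6, and 95.1 RPM in Ly6C hi and 14.3, 17.9, and 18.2 RPM in Ly6C low (means of WT, Slc29a3-/-, and Slc29a3-/- Tlr7-/-). Dfna5 was the pathway gene whose Slc29a3-/- effect differed most between subsets, by 2.13 against the double knockout (adjusted p = 8.6e-04) and 1.97 against WT (adjusted p = 0.0011). Of the other IL-1 family ligands, Il33, Il1f6, Il1f8, and Il1f10 were listed at 0 in all 24 libraries.

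As a description, the genes whose log2 levels ran most like those of Il1b over the 24 libraries were Pou6f1 (Pearson r = 0.91), Grap2 (0.89), Ly6a (0.89), Nuak2 (0.88), and Thbd (0.87), among 7491 genes with a mean of at least 10 RPM. For Gsdmd, taken by a rule on mean RPM that does not rank expression between genes, they were 1700094D03Rik, Clec2i, Hsd17b12, Acer3, and Mef2a (r = 0.91 to 0.92). Among the members themselves r ranged from -0.69 for Il1b with Il1r2 to 0.66 for Il18 with Il1r2. The libraries share subset and genotype, and no value was computed within groups.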

How the data were processed

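RNA of 24 libraries of sorted splenic monocytes was read with a mouse AmpliSeq transcriptome panel on an Ion Proton sequencer. The authors deposited 1 table of reads per 1000000 reads (RPM) for 23930 amplicons, 1 per gene, on mm10, in which 0 was written as 0.0001 and was set back to 0. The steps that wrote it are not given in the sources used here; the study's methods name Cutadapt, STAR, HTSeq, and the AmpliSeqRNA plug-in. In 27 rows the gene name was restored from the amplicon name. Depth was inferred from the even steps of values under 5 RPM.

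Genotypes were compared with limma 3.58.1 in R 4.3.3 on log2(RPM + 1) with an intensity trend, in 1 fit of 12 libraries per subset, and subsets and their differences in 1 fit of 24 libraries. A gene entered when 4 or more libraries had 1 RPM or more (10561, 10317, and 11042 genes). P-values were adjusted over all of them by the Benjamini-Hochberg method, and a fold change on this scale understates that of low genes. The script was tested on simulated data. Promoters were read from RefSeq on GRCm38.p6. Alternatives were other scalings, filters, pseudocounts, blocks, and libraries. The members and gene lists were chosen with earlier results of these data known. All members and, from the pathway lists, the 3 genes with the largest called change per comparison were to be named, and Mefv, Ninj1, the sensors, and single marker genes were named after their values were seen. Same-numbered WT libraries of both subsets deviated together (correlations 0.32, 0.26, 0.26, and 0.62), although replicates 2 and 3 correlated as well with other numbers. Pairs in the knockout genotypes and between genotypes did not all exceed 0.1. Counting error alone is covered by the limit of 3 reads, and replicates differed by more than counting noise. Between WT replicates 1 to 3 the mean chi-square per amplicon was 6.17 to 8.75 in Ly6C hi and 11 to 35.4 in Ly6C low. Between these and WT replicate 4 it was 82.2 to 86.1 and 128 to 158. Pairs within the knockout groups spanned 11.9 to 196. WT replicates 1 to 3 were thus closer to each other than to replicate 4, and the reason was not tested.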

Additional observations from a re-analysis of the deposited data

Results flagged for a closer look

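Of 59 sets of 4 libraries with values for a member, 7 held a library far from the other 3, where chance gives about 1 in 20. Il1b was at 421 RPM in replicate 4 of Ly6C hi Slc29a3-/- Tlr7-/- against 73.9 to 94.7 RPM in the others, and Pycard at 154 RPM in replicate 2 of that group against 79.1 to 89.8 RPM. Casp1 was at 82.3 RPM in Ly6C hi WT replicate 4 against 53.1 to 57.7 RPM, and at 103 RPM in Ly6C low WT replicate 4 against 64 to 68.8 RPM. Il1a was at 0.616 RPM in replicate 1 of Ly6C hi Slc29a3-/- Tlr7-/- against 0, where any value above 0 would have stood apart and the 1 in 20 does not apply, and at 2.21 RPM in replicate 3 of Ly6C low Slc29a3-/- Tlr7-/- against 0.079 to 0.323 RPM. Casp4 was at 4.16 RPM in Ly6C hi WT replicate 2 against 3.43 to 3.5 RPM.

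Of 20 differences of a genotype effect between the subsets that limma tested, 3 passed the threshold. Of all genes, 8.94% passed it in either direction for Slc29a3-/- against Slc29a3-/- Tlr7-/- and 8.76% for Slc29a3-/- against WT. The comparison with WT was added after the data were seen, and both use the same Slc29a3-/- libraries. Il1r2 differed by 3.18 on the log2 scale for Slc29a3-/- against Slc29a3-/- Tlr7-/- (adjusted p = 0.0038) and by 2.97 for Slc29a3-/- against WT (adjusted p = 0.0053). Il1b differed by -2.41 for Slc29a3-/- against WT (adjusted p = 0.01). Both differences in the comparison with WT were smaller in size with WT replicate 4 alone, as given above.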

How the results depend on the processing

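Among values of single called members under an alternative, 405 kept direction and side of the threshold, 79 kept direction but lost the call, and 1 reversed: Il1r2 in Ly6C low Slc29a3-/- Tlr7-/- against WT replicate 4 alone, at 0.31 on the log2 scale. The cause was not tested. The count of members called for Slc29a3-/- Tlr7-/- against WT moved in Ly6C low from 2 to 1 under TMM or RLE scaling, no filter, a mean of at least 10 RPM, 0.1 added to RPM, no trend, a replicate block, or a fit of the 2 groups alone. In Ly6C hi it moved from 1 to 0 under the last 6 of these. For Ly6C hi Slc29a3-/- against WT it moved from 2 to 1 without the trend or with the replicate block. Between the knockout genotypes in Ly6C low it moved from 0 to 1 under RLE scaling, 0.1 added to RPM, or the 2 groups alone. With unadjusted p-values the counts were 5 for Ly6C low Slc29a3-/- against WT, 4 for Slc29a3-/- Tlr7-/- against WT, 3 between the knockout genotypes, 3 between the WT subsets, and 4 for the difference between subsets. More of all genes also passed without adjustment in each of these comparisons. The counts of all genes at this threshold are given above for the knockout genotypes in Ly6C low, and are not set beside the other comparisons here. Whether members passed more often than other genes was not tested. These member counts are therefore given as a description only. With WT replicate 4 alone they were 0 and 0 in Ly6C hi, and 1 and 0 in Ly6C low, for Slc29a3-/- and Slc29a3-/- Tlr7-/-. A replicate block within each genotype, added after the data were seen, gave 2 members between the WT subsets and 2 for the difference between subsets, adding Il1b to each. For the difference, it pairs knockout libraries by a number that did not pair them throughout. Leaving out 1 library gave 1 to 2 members for Ly6C hi Slc29a3-/- against WT, 0 to 2 for Slc29a3-/- Tlr7-/- against WT, and 2 to 3 between them. In Ly6C low it gave 2 to 5, 1 to 3, and 0 to 1, and between subsets 1 to 2 in WT, 5 in Slc29a3-/-, and 4 to 6 in Slc29a3-/- Tlr7-/-, with 1 to 2 for the difference. Count tests were not run because the table holds RPM. With 4 libraries a group and 3 reads worth 0.206 to 0.244 RPM, Il1a and Il1r2 in Ly6C low Slc29a3-/- were near the limit of detection.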
